A study of Homo sapiens with 12 samples.

Results

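The 39 protein-coding genes of the human HOX clusters were examined in ARPE-19 cells. ARPE-19 is an established human cell line derived from the retinal pigment epithelium (RPE), the pigmented layer behind the photoreceptors. The genes were taken as every line of the deposited table with the gene type protein-coding and a name made of HOX, a cluster letter from A to D and a number. The table holds 40591 named lines, of which 19356 are protein-coding. HOX genes encode homeodomain transcription factors that give cells along the head-to-tail axis their positional identity. They lie in 4 clusters, and genes of the same number in different clusters are paralogs. Genes with low numbers act in the hindbrain and neck, and genes with high numbers in the lower trunk, limbs and genital tract. They are switched on in the order of their position in the cluster, with retinoic acid as a classical inducer, Polycomb proteins as repressors and Trithorax proteins as maintainers of the active state. The forebrain and the eye form in front of the domains in which HOX genes are active.

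Poly(A) RNA was sequenced from 4 groups of ARPE-19 cells with 3 libraries each. WT is the group with no named open reading frame (ORF), listed at day 4 like the other groups. GFP, GSTA4 and OSK are stable lines collected at day 4 of ORF expression, where GFP encodes a fluorescent protein, GSTA4 a glutathione S-transferase and OSK was taken as POU5F1 (OCT4), SOX2 and KLF4, the reprogramming factors. Whether the 3 libraries of each group are from separate lines or cultures is not stated, so the ORF and the line cannot be told apart, and p-values measure only the spread between these libraries. The introduced genes were high where the labels place them. GSTA4 averaged 415.8 ± 17.6 CPM (counts per gene after all libraries are brought to the same depth; SD, n = 3) in GSTA4 against 8.79 ± 0.849 in GFP, and in OSK the means were 779.1 CPM for POU5F1, 628.1 for SOX2 and 927.8 for KLF4. Library totals ran from 12630675 to 17045454 reads. Of 15 RPE markers, 11 could be tested, while RPE65, CRX, TTR and DCT stayed under 1 CPM in every group mean.

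No HOX gene reached the level taken as expressed in any group. A gene was counted as expressed where its mean in at least 1 group reached 1 CPM, and 0 of the 39 HOX genes did so, against 12723 of 19356 protein-coding lines (65.7%). At the lower level of 0.5 CPM the HOX count was also 0. The 39 genes together collected 58 reads among the 176439492 reads on named lines in 12 libraries. In 12 of the 39 genes (30.8%) no library held a read, whereas 4.75% of protein-coding lines had none. Reads never exceeded 3 in any library for 36 of the 39 genes, which was so for 15.6% of protein-coding lines. A count of 0 is compatible with up to 3 reads, so a HOX gene without a read could have stood at up to 0.177 to 0.228 CPM in a single library. Over the 3 libraries of a group, the same limit for 1 gene was 0.065 to 0.0726 CPM. Levels under these limits were not detectable at this depth. In bulk RNA, a low level in every cell and a higher level in few cells cannot be told apart.

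**Figure D1:**
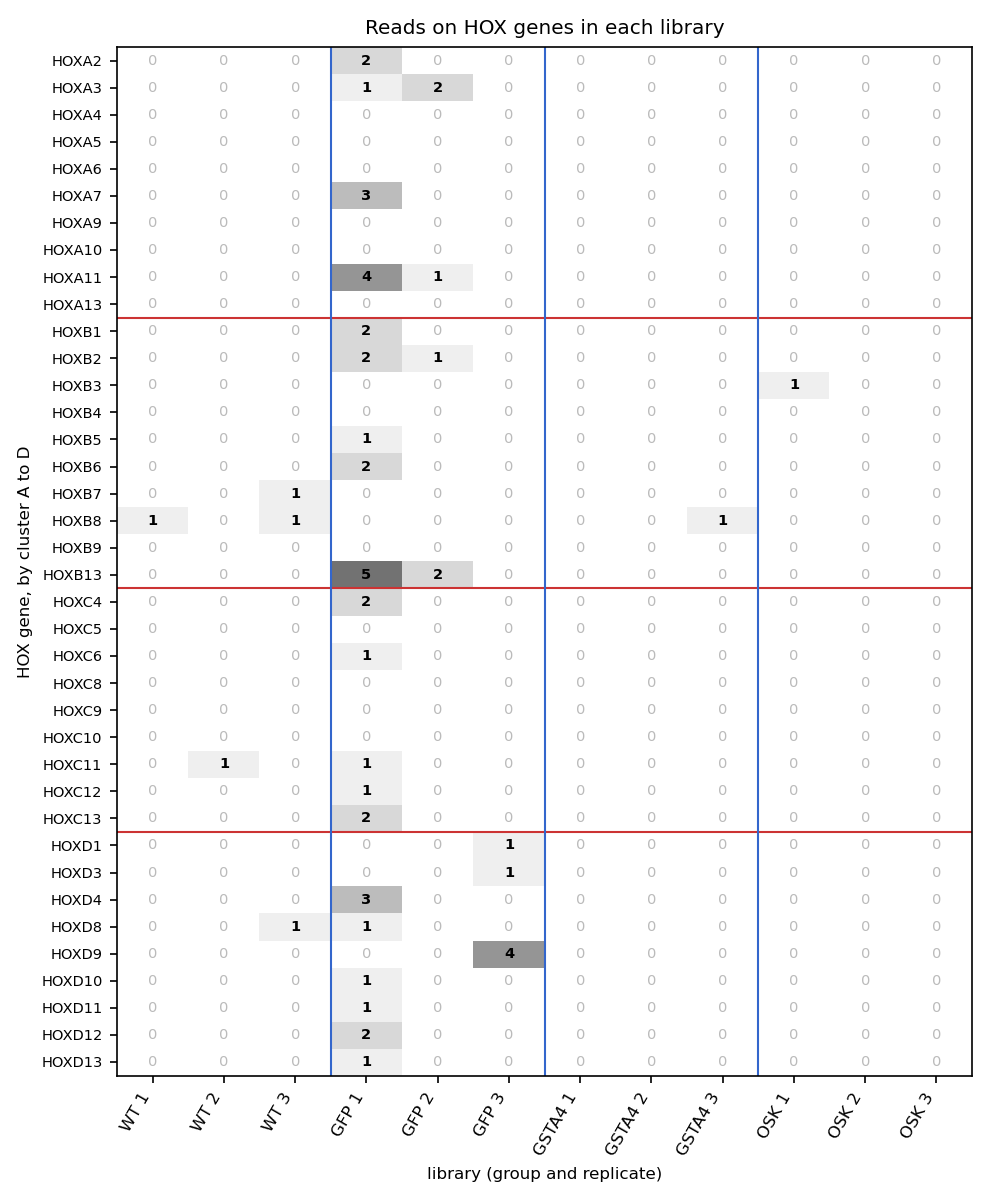
Reads on 38 of the 39 HOX genes (rows, cluster A at the top to cluster D at the bottom) in each of the 12 libraries (columns, by group and replicate), with the number printed in each cell and darker shading for more reads. Most cells hold 0, the highest value is 5 for HOXB13 in GFP replicate 1, and 38 of the 58 reads lie in the column of GFP replicate 1.

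The genes of paralog groups 1 to 3, which pattern the hindbrain and the branchial arches, had few reads, as did those of the higher groups. HOXA2, which sets the identity of hindbrain segments and branchial arch tissue, had 2 reads in GFP replicate 1 alone. The thymus and parathyroid regulator HOXA3 had 1 read in GFP replicate 1 and 2 in GFP replicate 2. All reads on HOXA2 and HOXA3 were therefore in GFP libraries, and each stayed under the limit of 3. HOXB1, a regulator of facial motor neurons, had 2 reads in GFP replicate 1. HOXB2, its neighbour, had 2 reads in GFP replicate 1 and 1 in GFP replicate 2. HOXB3 held the only HOX read of the OSK group, 1 read in OSK replicate 1. HOXD1 and HOXD3 each had 1 read in GFP replicate 3. No library had more than 2 reads on any of these genes.

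The middle genes, paralog groups 4 to 8, are known for the neck and the upper trunk, and 9 of the 15 had a read, with 18 reads in all. HOXA7 and HOXD4 had 3 reads each in GFP replicate 1 and 0 elsewhere. HOXB6 and HOXC4 had 2 reads each in that same library, and HOXB5 and HOXC6 had 1 each. HOXB8, which acts in blood progenitors and the spinal cord, had reads in 3 libraries, more than any other HOX gene, with 1 read each in WT replicate 1, WT replicate 3 and GSTA4 replicate 3. The last of these was the only HOX read of the GSTA4 group. HOXB7 had 1 read in WT replicate 3, and HOXD8 had 1 in WT replicate 3 and 1 in GFP replicate 1. The 6 middle genes with no read in any library were HOXA4, HOXA5, HOXA6, HOXB4, HOXC5 and HOXC8. HOXA5 is known for lung development and HOXB4 for blood stem cells.

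The posterior genes, paralog groups 9 to 13, include the 3 HOX genes that passed 3 reads in a library. HOXB13, a marker of prostate and tail-end tissue, had 5 reads in GFP replicate 1, 2 in GFP replicate 2 and 0 in GFP replicate 3 and all other libraries. HOXA11, which acts in the uterus and the forearm, had 4, 1 and 0 reads in GFP replicates 1, 2 and 3 and 0 elsewhere. HOXD9 had 4 reads in GFP replicate 3 and 0 in the other 11 libraries. In each of the 3, at least 1 GFP library stood at 0, so the GFP values overlapped those of WT, GSTA4 and OSK. As levels these highest values were 0.38 CPM for HOXB13, 0.304 CPM for HOXA11 and 0.272 CPM for HOXD9. HOXC13, a regulator of hair and nail, had 2 reads in GFP replicate 1, as had HOXD12. In the same library HOXC12 had 1 read, and so did the limb and digit genes HOXD10, HOXD11 and HOXD13. HOXC11 had 1 read in GFP replicate 1 and 1 in WT replicate 2. No library held a read on HOXA9, HOXA10, HOXA13, HOXB9, HOXC9 or HOXC10, among them the blood and uterus regulators HOXA9 and HOXA10 and the digit gene HOXA13. In total 10 of the 16 posterior genes had a read, with 26 reads.

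Scaled by exon length, HOX levels were far under those of the anterior transcription factors of the same cells. For the 38 HOX genes with an exon length in GENCODE release 29 (1.285 to 7.456 kb), the highest group mean was 0.0543 CPM per kb, for HOXA11 in GFP. The highest single library reached 0.156 CPM per kb, for HOXD4. On that scale the group means of OTX2, a head and RPE determinant, ran from 40.0 to 58.8 CPM per kb, and those of LHX2, an eye field factor, from 23.9 to 46.2 CPM per kb. PAX6, the eye master regulator, lay at 8.40 to 9.19 CPM per kb.

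The HOX genes were also set beside other families of developmental transcription factors, which were picked after their values had been seen. At 1 CPM or more stood 14 of 18 KLF genes, 9 of 19 SOX genes, 20 of 45 FOX genes and 2 of 8 LHX genes. Among the homeobox families, the DLX genes had 0 of 6, as the HOX genes had 0 of 39. With 12 of 39, the HOX genes also had more members without any read than the FOX family, with 2 of 45, and the other 8 families, with 0.

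**Figure D2:**
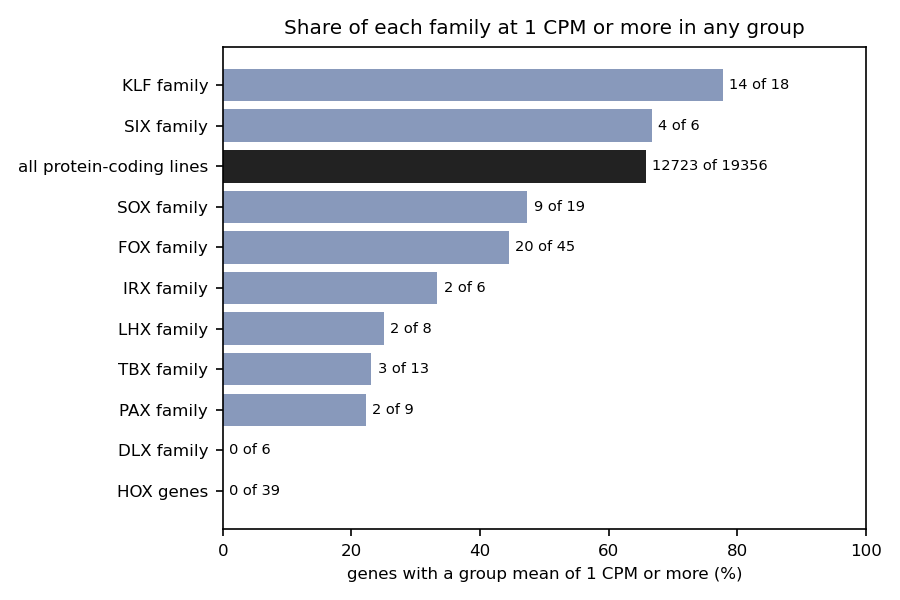
Share of the genes of each transcription factor family whose mean reached 1 CPM in at least 1 group (horizontal axis, percent), with the count beside each bar and all protein-coding lines in black. The HOX and DLX bars are at 0, while all protein-coding lines reach 65.7%.

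Few as they were, the HOX reads were unevenly spread over groups and libraries. WT held 5 reads, GFP 51, GSTA4 1 and OSK 1. As CPM of the reads on named lines, without the TMM correction for composition, the summed HOX level was 0.108 in WT (95% Clopper-Pearson interval 0.0352 to 0.253), 1.23 in GFP (0.918 to 1.62), 0.0231 in GSTA4 (0.000585 to 0.129) and 0.0219 in OSK (0.000554 to 0.122). These intervals cover counting error only, since no molecular identifiers are stated. By library, the WT replicates held 1, 1 and 3 HOX reads, the GFP replicates 38, 7 and 6, the GSTA4 replicates 0, 0 and 1, and the OSK replicates 1, 0 and 0. Each GFP library thus had more HOX reads than each of the other 9 libraries, and GFP replicate 1 stood far above the other GFP libraries. It had reads on 20 of the 39 genes, and 14 of the 27 genes with a read had theirs in this library alone. A further 8 had reads in GFP libraries only, and 5 had a read outside GFP. Without GFP replicate 1, the number of HOX genes with a read fell from 27 to 13, the reads from 58 to 20, and the GFP level to 0.451 CPM (0.240 to 0.771).

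GFP replicate 1 carried low counts on many genes besides HOX. It had reads on 27349 named lines, against 19488 to 22073 in the other 11 libraries, although its total was the lowest. Among HOX genes without a read in the other 11 libraries, it had reads on 14 of 26 (53.8%). Among all protein-coding lines of that kind the share was 871 of 1790 (48.7%), so HOX genes stood close to protein-coding genes at large. In the other libraries the same share for protein-coding lines ran from 1.18% to 8.01%. In GFP replicate 3, 3 of 15 HOX genes gained a read this way (20%) against 4.67% of protein-coding lines, and all 6 of its HOX reads lay in cluster D. What part this breadth of low counts has in the HOX reads of the GFP group was not tested.

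**Figure D3:**
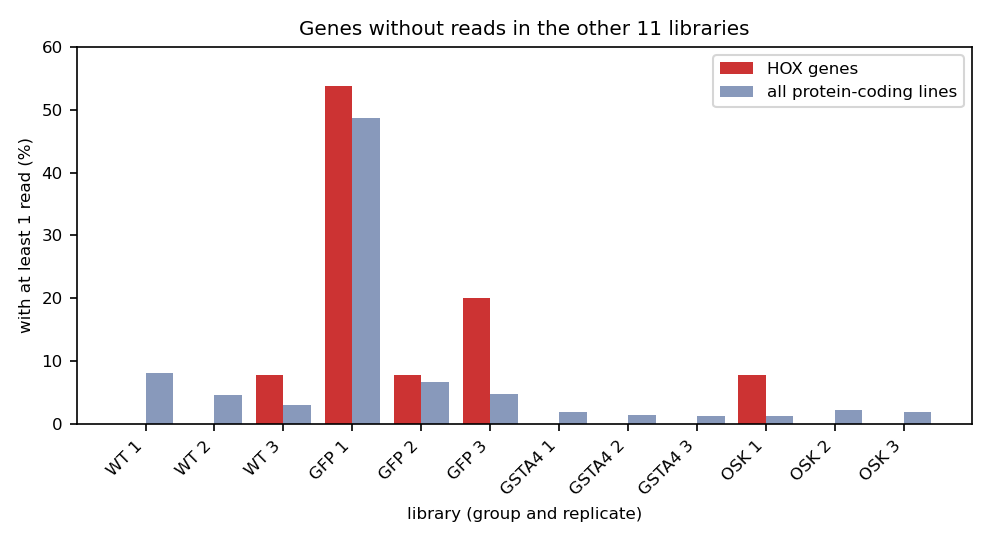
For each library (horizontal axis), the share of genes with at least 1 read among those with none in the other 11 libraries (vertical axis, percent), for HOX genes in red and all protein-coding lines in blue. GFP replicate 1 stands apart for both, at 53.8% of HOX genes and 48.7% of protein-coding lines.

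None of the comparisons between groups could be made for a HOX gene in the edgeR quasi-likelihood test, because no HOX gene passed the filter on low counts. The filter needed about 0.682 CPM in 3 libraries and kept 15179 genes. HOX genes called were 0 in GSTA4 against GFP, where 29.2% of all tested genes passed an adjusted p of 0.05. In OSK against GFP, where 45.9% of tested genes passed, the HOX count was again 0. GFP against WT gave 0 HOX genes beside 22.2% of tested genes, and OSK against GSTA4 gave 0 beside 47.8%. The F test for any difference among the 4 groups called 66.9% of tested genes and no HOX gene. With the filter removed, 27 HOX genes with at least 1 read entered the edgeR fit, and 0 were called in any comparison. The lowest unadjusted p was 0.0632 in GSTA4 against GFP, 0.0627 in OSK against GFP and 0.0592 in GFP against WT, all for HOXB13, and 0.362 in OSK against GSTA4, for HOXB8. No HOX gene had an unadjusted p under 0.05 in these 4 comparisons. In the unfiltered F test 1 HOX gene, HOXB13, had an unadjusted p of 0.0441, with an adjusted p of 0.114 in edgeR. DESeq2 gave unadjusted p-values for the same 27 genes, 0 of them under 0.05 with a lowest of 0.334, and adjusted p-values for none. For single HOX genes the unfiltered fit thus detected no difference, which does not show that their levels were equal. The filtered counts of 0 say nothing of a difference, as no HOX gene was tested. None of these tests covered the summed HOX level.

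Reads on the noncoding RNAs of the clusters were as scarce as those on the genes. All 24 listed RNAs, among them HOTAIR, HOTTIP and HOTAIRM1 and the miRNA genes MIR10A and MIR196A1, were in the table, and 0 reached 1 CPM in a group mean. The miRNA genes of the list had 0 reads, which in poly(A) RNA says nothing of the level of mature miRNAs. GFP replicate 1 held 19 reads on 13 of them, with up to 5 reads for HOXC13-AS, and each other library held 0 or 1 read. Strand use in the counting is not given in the sources used here, so reads of a HOX gene and its antisense partner cannot be told apart. Some HOX gene models overlap their neighbours, and how shared reads were counted is not given either.

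By cluster, reads were found on 5 of 11 genes in A (14 reads), 8 of 10 in B (20 reads), 5 of 9 in C (8 reads) and 9 of 9 in D (16 reads). GFP replicate 1 supplied 10, 12, 7 and 9 of these reads in the order A to D. In RefSeq GRCh38.p14, cluster A spans 107 kb of chromosome 7, cluster B chr17:48528526-48728750 (200.2 kb), cluster C chr12:53938831-54056030 (117 kb) and cluster D chr2:176087487-176190907 (103 kb). Inside these spans no line reached a mean of 1 CPM, and the most reads were the 41 on RPL9P28, a ribosomal protein pseudogene in cluster B. PRAC1 and PRAC2, protein-coding genes between HOXB9 and HOXB13, had 0 reads in all 12 libraries. Outside the clusters the levels were mixed. Within 500 kb on either side, 26 of 42 protein-coding genes (61.9%) were expressed at 1 CPM or more, close to the 65.7% of all protein-coding lines. In cluster D the nearest such genes were MTX2, a mitochondrial import protein 78.5 kb from the cluster at a mean of 24.5 CPM, and LNPK, an endoplasmic reticulum protein 84.7 kb away on the other side at 33.4 CPM. SMUG1, a DNA repair glycosylase, lay 102 kb from cluster C at 28.8 CPM, with CALCOCO1 211 kb away on the other side at 408.8 CPM. Next to cluster B, TTLL6 had a mean of 0.978 CPM at 33.5 kb, and CALCOCO2, an autophagy receptor, 189.8 CPM at 102 kb. HIBADH, an enzyme of valine breakdown, was 325 kb from cluster A at 62.2 CPM. On the other side of cluster A, the only protein-coding gene within 500 kb was SKAP2, 228403 bases away, with 26 reads in all. On the other side of cluster B, the nearest protein-coding gene, SKAP1, 83465 bases away, had 0 reads in all 12 libraries, and the nearest at 1 CPM or more was SNX11, 405 kb away. EVX1 and EVX2, homeobox genes beside the posterior ends of clusters A and D, were also low, with 9 and 8 reads in all. All of these reads were in the GFP group. Those of EVX1 were all in GFP replicate 1, at 0.684 CPM, above the highest HOX value of 0.38 CPM.

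**Figure D4:**
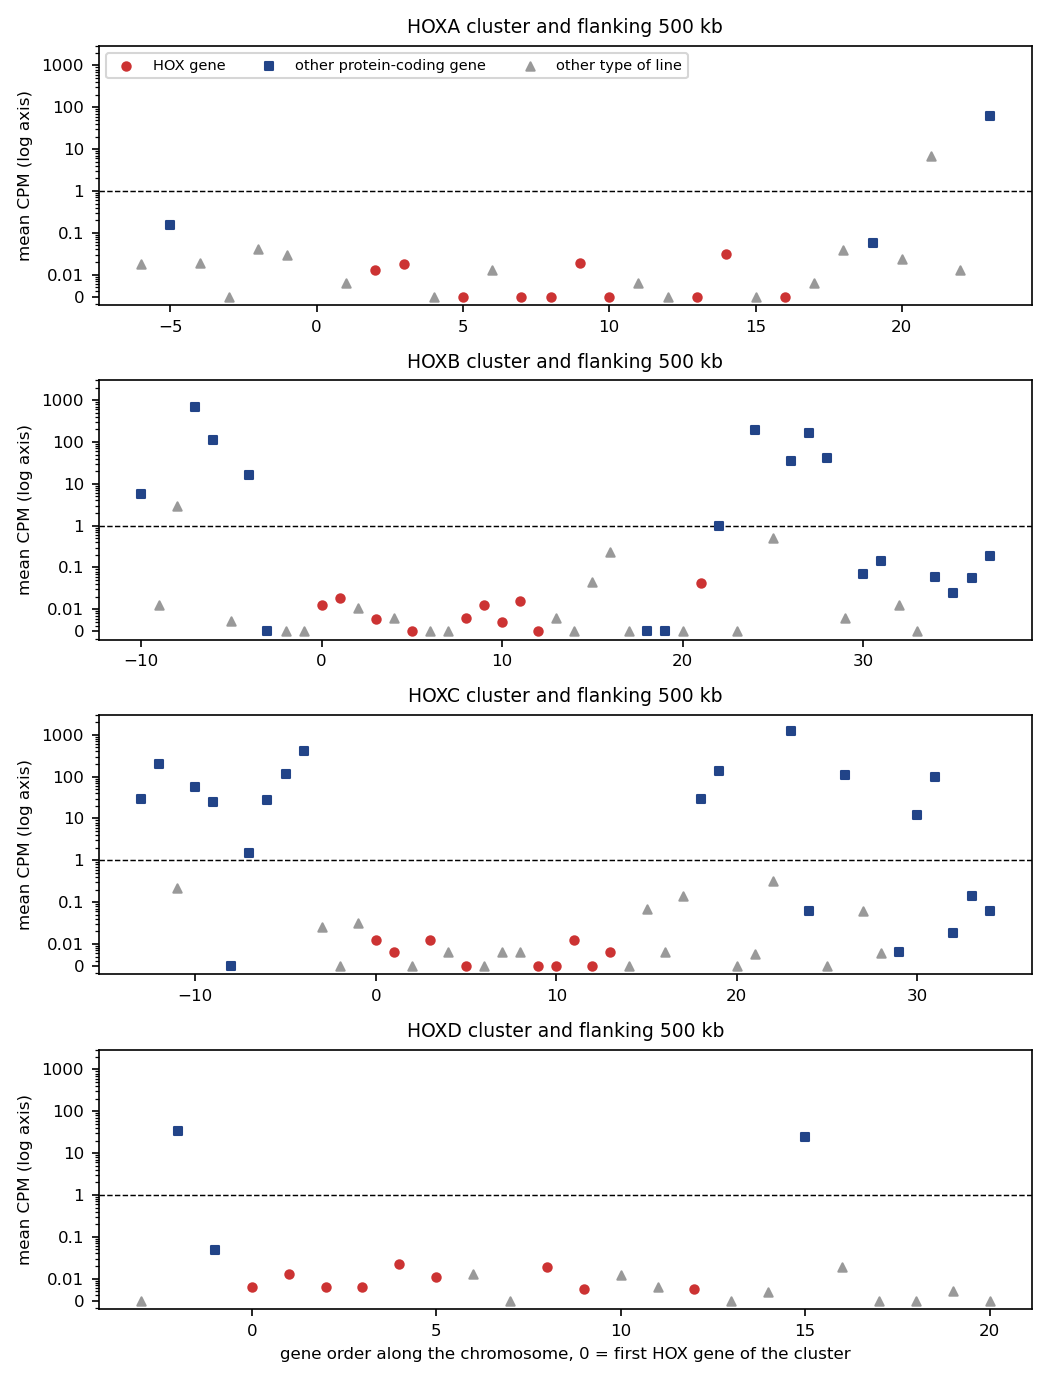
Mean CPM over the 12 libraries (vertical axis, log scale with 0 shown at the bottom) for lines in and within 500 kb of each HOX cluster, in gene order along the chromosome (horizontal axis, 0 is the first HOX gene), with HOX genes in red, other protein-coding genes in blue and other lines in grey. All HOX points lie under the dashed line at 1 CPM, while 26 of the 42 flanking protein-coding genes reached 1 CPM in a group mean.

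In CpG number the promoters of the HOX genes were close to those of protein-coding genes at large. RefSeq promoter windows of 300 bases (250 before to 50 after the start, GRCh38.p14) were at hand for 20 of the 39 genes, most of them in clusters A and D. The entry with the most CpG is shown for each cluster, with that of MTX2, the expressed neighbour of cluster D, for comparison, all 5′ to 3′ with each CpG in capitals. HOXA13 (chr7:27200042-27200341, minus strand), HOXB1 (chr17:48530962-48531261, minus strand), HOXC4 (chr12:54016638-54016937, plus strand), HOXD1 (chr2:176188418-176188717, plus strand) and MTX2 (chr2:176269192-176269491, plus strand) read as follows.
HOXA13: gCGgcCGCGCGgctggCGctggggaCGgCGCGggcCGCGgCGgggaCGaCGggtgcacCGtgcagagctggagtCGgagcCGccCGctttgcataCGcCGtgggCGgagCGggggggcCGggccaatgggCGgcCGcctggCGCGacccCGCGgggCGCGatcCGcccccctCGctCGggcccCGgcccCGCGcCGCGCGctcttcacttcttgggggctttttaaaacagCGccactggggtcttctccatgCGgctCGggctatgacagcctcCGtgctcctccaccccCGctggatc
HOXB1: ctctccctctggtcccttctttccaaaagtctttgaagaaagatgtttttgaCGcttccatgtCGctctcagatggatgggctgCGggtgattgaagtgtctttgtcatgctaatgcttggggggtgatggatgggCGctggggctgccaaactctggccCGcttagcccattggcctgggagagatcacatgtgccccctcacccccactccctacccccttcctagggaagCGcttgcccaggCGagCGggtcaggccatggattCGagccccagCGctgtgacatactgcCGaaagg
HOXC4: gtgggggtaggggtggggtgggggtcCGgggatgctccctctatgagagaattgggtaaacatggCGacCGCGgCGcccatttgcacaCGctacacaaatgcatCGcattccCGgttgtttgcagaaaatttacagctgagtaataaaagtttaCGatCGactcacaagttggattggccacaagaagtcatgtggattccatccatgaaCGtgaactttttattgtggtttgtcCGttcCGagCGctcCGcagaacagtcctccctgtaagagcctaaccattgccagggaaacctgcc
HOXD1: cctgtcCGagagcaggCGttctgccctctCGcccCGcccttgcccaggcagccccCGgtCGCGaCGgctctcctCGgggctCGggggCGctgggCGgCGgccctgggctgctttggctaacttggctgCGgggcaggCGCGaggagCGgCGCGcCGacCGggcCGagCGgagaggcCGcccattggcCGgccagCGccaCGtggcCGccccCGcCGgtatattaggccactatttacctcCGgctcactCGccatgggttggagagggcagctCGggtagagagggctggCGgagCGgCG
MTX2: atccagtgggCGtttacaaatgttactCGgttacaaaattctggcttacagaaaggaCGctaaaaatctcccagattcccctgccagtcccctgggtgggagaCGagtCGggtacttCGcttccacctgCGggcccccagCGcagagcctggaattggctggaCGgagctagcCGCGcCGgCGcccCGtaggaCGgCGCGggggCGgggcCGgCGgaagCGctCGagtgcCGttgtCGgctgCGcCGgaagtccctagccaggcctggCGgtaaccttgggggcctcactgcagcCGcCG

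HOXA13, with no read in any library, had 44 CpG in this window, the most of the 27 HOX entries, and HOXD1, with 1 read, had 36. MTX2 had 29. HOXC4 had 15, and HOXC5 has the very same window, so that this sequence is counted for both genes. HOXB1, the only gene of cluster B with an entry, had 11. Averaged within each gene, the median over the 20 HOX genes was 23 CpG, with a range from 4 in HOXD4 to 44 in HOXA13. The same median was 22 over all 15186 protein-coding genes with an entry. It was 25.5 over 10320 protein-coding genes at 1 CPM or more and 7 over 4866 protein-coding genes under 1 CPM. In CpG number the HOX median was thus close to that of all genes, and nearer to that of the expressed genes than to that of the genes under 1 CPM. The sequence TATAAA on either strand was in 5 of 27 HOX entries (18.5%) and in 9.43% of all protein-coding entries, 6.14% of those of genes at 1 CPM or more and 17.5% of those of genes under 1 CPM. In this respect the HOX share was nearer to that of the genes under 1 CPM. The HOX entries with TATAAA were of HOXD13, HOXA3, HOXA9 and HOXA10, the last in both of its entries. These shares count entries, so a gene with several entries weighs more than once. The octamer ATGCAAAT, the kind of site that POU factors such as POU5F1 bind, was in 2 HOX entries (7.41%), of HOXA3 and HOXA10, against 1.66% of all. The HOXA10 entry with the octamer holds TATAAA as well. Neither gene had a read in any OSK library.

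The partners and regulators of HOX proteins were present in these cells, and their lists were chosen with earlier results known. All 9 TALE cofactors, the PBX, MEIS and PKNOX proteins that bind DNA together with HOX proteins, were tested. In GSTA4 against GFP 4 were higher and 1 lower, and in OSK against GFP 1 was higher and 1 lower, with median log2 changes of 0.13 and -0.14 beside 0.0082 and -0.019 for all genes. The calls were thus 5 of 9 and 2 of 9, beside 29.2% and 45.9% of all tested genes in these comparisons. Scaled by library size alone, 1 was higher and 3 were lower in OSK. PBX3 averaged 72.9 ± 1.10 CPM in GFP, 90.4 ± 2.01 in GSTA4 and 91.5 ± 6.09 in OSK (SD, n = 3), and no GSTA4 or OSK library overlapped the GFP range. Its log2 change was 0.31 ± 0.0712 (SE) in GSTA4 and 0.33 ± 0.0711 in OSK, with edgeR adjusted p of 0.00237 and 0.000735. MEIS2 fell in OSK by 0.48 ± 0.0645 on the log2 scale (edgeR adjusted p = 3.22e-06). PKNOX2, named after its values were seen, was the lower gene in GSTA4, with 28, 18 and 21 reads in the GFP libraries and 0 in each GSTA4 library.

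All 31 Polycomb subunits were expressed, 7 of them higher and 3 lower in GSTA4 against GFP and 9 higher and 9 lower in OSK against GFP, or 10 of 31 and 18 of 31 beside 29.2% and 45.9% of all tested genes. The directions depended on the control group: against WT 1 was higher and 6 lower in GSTA4, and 7 were higher and 13 lower in OSK. Those were 7 and 20 of 31, beside 5864 and 6890 of 15179 tested genes called against WT. Without GSTA4 replicate 1 or GSTA4 replicate 2 the calls in GSTA4 numbered 5 in place of 10. EZH1, a histone H3K27 methyltransferase, was 0.51 ± 0.0698 lower on the log2 scale in OSK (edgeR adjusted p = 4.14e-06) at 53.2 CPM against 75.9 in GFP. It was 0.32 ± 0.0679 higher in GSTA4 (edgeR adjusted p = 0.00136), but at 0.06 did not pass with WT as the control. PHF19, an accessory subunit, was higher in GFP than in WT by 1.41 ± 0.15 and higher in OSK than in GFP by 0.68 ± 0.131 (edgeR adjusted p = 1.63e-06 and 0.000244). Of 18 Trithorax and elongation factors, 1 rose and 3 fell in GSTA4 and 3 rose and 3 fell in OSK, each against GFP, so that 4 and 6 of 18 were called beside the same 29.2% and 45.9% of all tested genes. Against WT 1 was higher and 6 lower in GSTA4, or 7 of 18 beside 5864 of 15179 tested genes. Without GSTA4 replicate 1 or GSTA4 replicate 2 the calls in GSTA4 numbered 2, and scaled by library size alone 2 were higher and 4 lower in OSK.

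Of 18 retinoic acid pathway genes 13 were tested, with 1 higher and 7 lower in GSTA4 against GFP and 4 higher and 5 lower in OSK against GFP. This made 8 and 9 of 13, beside 29.2% and 45.9% of all tested genes. The split in OSK was 2 higher and 5 lower without GFP replicate 1, and 2 higher and 6 lower with WT as the control. With that control 8 of 13 were called in OSK, beside 6890 of 15179 tested genes. RARA, a retinoic acid receptor, stood at 90.9, 91.8 and 95.2 CPM in the GFP libraries, 49.1, 41.8 and 40.0 in GSTA4 and 118.8, 123.5 and 119.4 in OSK, with no overlap between these groups. Its log2 change against GFP was -1.08 ± 0.0742 in GSTA4 and 0.38 ± 0.0703 in OSK (edgeR adjusted p = 4.78e-10 and 0.000155). ALDH1A3, which makes retinoic acid, fell by 0.68 ± 0.062 in GSTA4 and by 0.77 ± 0.0621 in OSK (edgeR adjusted p = 3.57e-08 and 2.24e-09). HOX reads numbered 1 in each of these groups.

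Of 8 ParaHox and EVX genes, the closest relatives of the HOX genes, GSX2 alone could be tested. Its mean was 8.18 CPM in GFP against 4.99 in WT, 5.17 in GSTA4 and 4.18 in OSK, and it was lower than GFP by 0.66 ± 0.196 in GSTA4 and by 0.96 ± 0.201 in OSK on the log2 scale (edgeR adjusted p = 0.0149 and 0.00052). Against WT as the control neither difference passed, at log2 changes of 0.05 and -0.26, and without GFP replicate 1, GSTA4 replicate 1 or GSTA4 replicate 2 the difference in GSTA4 missed the threshold as well (edgeR adjusted p = 0.0583, 0.0678 and 0.0603). Among 11 anterior and eye field factors 7 were tested, with 0 higher and 2 lower in GSTA4 and 1 higher and 3 lower in OSK, each against GFP. With 2 and 4 of 7 called beside 29.2% and 45.9% of all tested genes, these counts were close to the shares over all genes. RPE markers, with OTX2 in both lists, had larger falls when set against GFP. Their median log2 changes were -0.56 in GSTA4 and -0.78 in OSK, beside -0.040 and -0.091 for the anterior factors. Of 11 RPE markers tested, 1 was higher and 8 were lower in GSTA4, and 0 were higher and 11 lower in OSK. The GFP group itself differed from WT, with 7 of these 11 higher and 2 lower in GFP. A marker lower than in GFP thus need not be lower than in WT. The 15 RPE markers summed to 2569 to 2788 CPM in the WT libraries and 2320 to 2658 in GFP. They summed to 1748 to 1820 CPM in GSTA4 and 1508 to 1567 in OSK. The part of this summed level in the falls of LHX2, OTX2 and ALDH1A3 was not tested. LHX2 fell by 0.57 ± 0.0691 and 0.71 ± 0.0695 in GSTA4 and OSK, and OTX2 by 0.56 ± 0.0587 and 0.26 ± 0.0583 (edgeR adjusted p = 2.22e-06, 4.06e-08, 3.32e-07 and 0.000998). SIX3 rose in OSK by 0.57 ± 0.0713 (edgeR adjusted p = 1.23e-06).

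**Figure D5:**
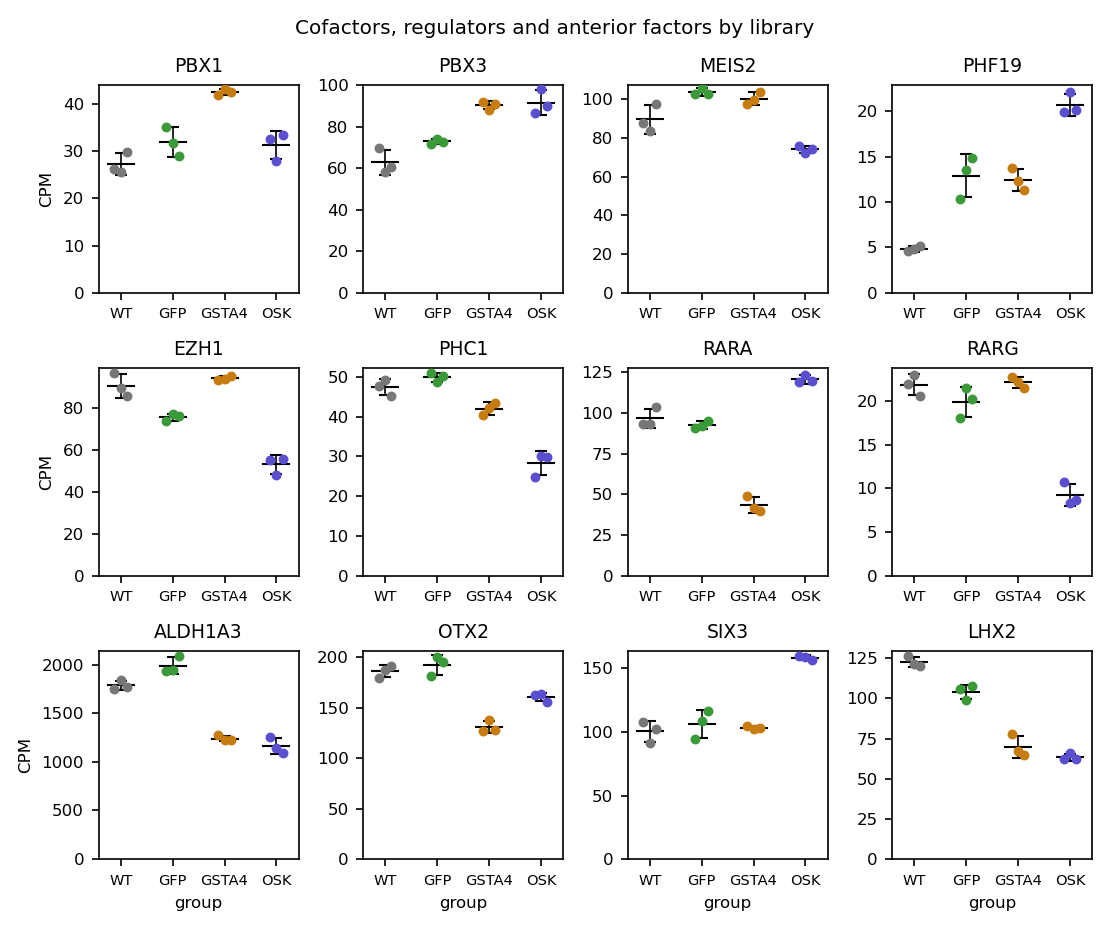
CPM (vertical axes, each starting at 0) of 12 cofactors, regulators and anterior factors in each library by group (horizontal axes), with points for libraries and bars for the mean and SD of 3. RARA separates GSTA4, at 40.0 to 49.1 CPM, from OSK, at 118.8 to 123.5 CPM, while no HOX gene reached 0.5 CPM in any library.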

How the data were processed

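Poly(A) RNA of 12 ARPE-19 libraries was measured by RNA-seq. Raw read counts for each gene in each library were deposited by the authors. The submitters' processing notes name STAR 2.7.1a and featureCounts 1.6.2 and the builds GRCh38, hg38, GRCm38 and mm10, without their roles. The annotation release and strand setting are not given in the sources used here. Of 60605 lines, 20014 have no symbol and hold 0.485% to 0.822% of a library's reads. They were left out, and 1272 named lines that share a symbol were kept apart.

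Groups came from the sample titles. Counts were fitted in R 4.3.3 with edgeR 4.0.16 (limma 3.58.1) by quasi-likelihood after TMM scaling, with a mean per group, no covariate, and filterByExpr by group (minimum count 10), which kept 15179 genes. The biological coefficient of variation was 7.91%. P-values are two-sided and adjusted by Benjamini-Hochberg over all genes tested, with 0.05 as the threshold. CPM are TMM-scaled, and the SE is the log2 change over the root of F. Intervals are at 95%. On simulated counts for GSTA4 against GFP with 15179 genes, of which 200 were changed, 67.5% were recovered with 8 false calls. Of the 130 changed by at least 1 on the log2 scale, 79.2% were recovered.

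The HOX genes and all lists were chosen with earlier results of these data known. The values of 1 HOX gene are not reported here on their own, the other HOX genes are named, and for every other list the F test chose which genes to name, at most the 3 with the smallest adjusted p. Alternatives were DESeq2 1.42.0, other scalings and filters, the replicate number as a block, other groups in the fit, WT as control and each library left out. Gene positions and promoters are from RefSeq GRCh38.p14, and exon lengths from GENCODE release 29.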

Additional observations from a re-analysis of the deposited data

How the results depend on the processing

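Among the alternatives, HOX genes were tested with an adjusted p only in the edgeR fits without the filter, where 0 of 27 were called in each of the 5 comparisons. In the others the count of 0 follows from no HOX gene being tested and says nothing about stability. The number of HOX genes at the level taken as expressed was 0 at 0.5, 1 and 2 CPM. The number of HOX genes with a read, left out library by library (chosen after seeing the data), ran from 13 to 27, the lowest without GFP replicate 1. With the replicate block the count was 0 because no HOX gene was tested. Replicate numbers paired the libraries weakly at most. Over 18 pairs of libraries with the same number the correlation of deviations from the group means ran from -0.0193 to 0.153. It was over 0.1 in 3, those of WT replicate 1 with replicate 1 of GFP (0.153), GSTA4 (0.120) and OSK (0.106). With the other libraries of these groups WT replicate 1 stood at -0.0982 to -0.0343. Of 12 libraries, 5 correlated best with their own number, and a shared component of replicate 1 was not tested. Over all genes the block moved the calls in GSTA4 against GFP from 4439 to 4734 and in GFP against WT from 3369 to 3779.

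With WT as the control, the log2 change of GSX2 in GSTA4 turned from -0.66 to 0.047, and that of EZH1 in GSTA4 went from 0.32 to 0.06. The Polycomb calls in GSTA4 went from 7 higher and 3 lower to 1 higher and 6 lower. Over all 15179 tested genes that control moved the calls in GSTA4 from 4439 to 5864. Without a scaling factor beyond library size, TALE cofactors called in OSK against GFP went from 2 to 4 (1 higher, 3 lower). Trithorax calls under that scaling were split 2 higher to 4 lower in place of 3 to 3, and flanking genes 0 to 3 in place of 1 to 2. These flanking genes are a chosen list of 11 genes in or near the clusters, not the 42 above, and 8 were tested. In OSK against GFP 3 of the 8 were called, beside 45.9% of all tested genes. Without GSTA4 replicate 1 or replicate 2, Polycomb calls in GSTA4 against GFP fell from 10 to 5 and Trithorax calls from 4 to 2. Trithorax calls were also 2 without the filter and 7 with WT as the control. Flanking gene calls in OSK against GFP went from 3 to 1 without OSK replicate 1. The cause was not tested. Depth limits a HOX level to what 3 reads in a library can show.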
